A study of Mus musculus with 11 samples.

Results

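PU.1 is a transcription factor that works with repressor proteins, and 8 genes encoding such partners or related chromatin enzymes were examined for PU.1 occupancy. They are Suv39h1, Suv39h2, Cbx5, Hdac1, Hdac2, Hdac3, Sin3a and Ezh2, chosen by name out of 22359 protein-coding genes on mm9. Each gene was taken with 5 kb on each side and divided into windows of 500 bp, which gave 720 of the 5309802 windows of the genome. PU.1 occupancy was measured by ChIP-Seq, in which DNA recovered with an antibody from fixed chromatin is sequenced next to input DNA that was not immunoprecipitated.

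The study compared leukemic with normal proliferating erythroid cells of the mouse. The leukemic cells were murine erythroleukemia (MEL) cells (clone 4 in the labels, clone DS19 in the study's methods), a single line that stably carries Gata-1 fused to ER, the ligand-binding part of the estrogen receptor. The normal cells were erythroid progenitors derived from ES cells (ES-EP), kept in Epogen, IGF-1, dexamethasone and SCF. Antibody T-21 was used for PU.1 in both, and there were 2 input libraries for ES-EP and 1 for MEL cells. The study made 2 chromatin preparations per cell type, and the ChIP libraries are labelled A1, A2, B1 and B2. Each letter was taken here as 1 preparation (A and B) with 2 libraries, which the labels do not state. Expression of marker genes was not analysed here, so that the identity of the cells was not checked.

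In erythroid cells PU.1 opposes GATA-1. It is known to hold Rb, the H3K9 methyltransferase SUV39H and the reader of that mark, HP1alpha (the product of Cbx5), at genes that GATA-1 would activate. It also binds the corepressor mSin3A, a scaffold that carries the histone deacetylases HDAC1 and HDAC2. HDAC3 is the deacetylase of the NCoR and SMRT complexes, and EZH2 is the H3K27 methyltransferase of Polycomb repressive complex 2. The measurements below are of PU.1 at the genes that encode these proteins, not of the proteins bound to PU.1.

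The libraries, inputs included, held between 2054667 and 5051235 reads on chromosomes 1 to 19, X and Y. A window 13002 bp upstream of the start of Sfpi1, the gene of PU.1, served as a check of the immunoprecipitation. It held 10.0 times the depth-scaled input in MEL cells (95% interval 3.82 to 37.4) and 13.2 times in ES-EP (4.35 to 65.8). By preparation, A and B stood at 4.32 and 14.7 in MEL cells and at 13.1 and 13.4 in ES-EP. Intervals of ratios are exact (Clopper-Pearson) and cover counting error only, and reads are not independent molecules where they are PCR copies. Promoters, taken as 500 bp centred on a gene start, held 1.30% of the reads of the MEL input and 2.57% and 3.49% of those of the ES-EP inputs. In the MEL ChIP libraries they held 2.32% and 2.64% (A) and 3.64% and 4.72% (B). In the ES-EP ChIP libraries they held 4.92% and 6.94% (A) and 2.70% and 3.95% (B), so that ES-EP preparation B was close to its inputs. The input of ES-EP thus had 2.46 times as many promoter reads as that of MEL cells after scaling to depth, and 6 of the 8 members shared this direction. Every ratio of ChIP to input at a promoter below carries this difference between the inputs, and its part in the results was not tested.

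The sequences shown are the stretches under the read summits in Ezh2 and Hdac1, the 2 of 4 summits examined that hold a PU.1-type word, and 2 further stretches of the same Ezh2 intron that hold such a word without a summit. The summit of the Sin3a window called in MEL cells holds no such word and is not printed. They are given on the plus strand of mm9, 5′ to 3′, with the words GAGGAA and AGGAAGT of either strand in capitals. Both words are parts of the known purine-rich PU.1 site and overlap by AGGAA when joined.
Ezh2 intron 3, summit, chr6:47510999-47511119: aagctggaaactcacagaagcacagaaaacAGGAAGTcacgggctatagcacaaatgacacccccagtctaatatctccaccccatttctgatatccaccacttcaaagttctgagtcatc
Ezh2 intron 3, before the summit, chr6:47510490-47510536: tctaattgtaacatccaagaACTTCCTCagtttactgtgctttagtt
Ezh2 intron 3, after the summit, chr6:47511478-47511524: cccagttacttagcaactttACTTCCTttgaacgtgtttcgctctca
Hdac1 intron 1, summit, chr4:129219673-129219793: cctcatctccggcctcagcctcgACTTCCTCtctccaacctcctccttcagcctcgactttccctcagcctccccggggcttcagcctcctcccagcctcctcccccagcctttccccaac
AGGAAGT was found on either strand in 11.6% of 5116421 windows of 500 bp without unread bases and in 12.3% of all promoters, and GAGGAA in 39.3% and 41.4%. Of the 2708 windows called in both cell types, 51.9% held AGGAAGT and 69.8% held GAGGAA. A match describes the letters and is not evidence of a site.

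A window or promoter was called occupied where the reads of both preparations exceeded the depth-scaled input at a Benjamini-Hochberg adjusted p below 0.05 (exact one-sided Poisson test, adjusted over the whole table). Of the 720 member windows, 4 were called in MEL cells (0.556%) and 1 in ES-EP (0.139%). Over the genome the called share was 0.133% for MEL cells and 0.0952% for ES-EP, and among windows of protein-coding genes with 5 kb on each side the shares were 0.228% and 0.165%. The called windows lay in 3 of the 8 regions. They were 1 in Ezh2 (both cell types), 1 in Sin3a and 2 at the far end of the Hdac3 region (both MEL cells). These last 2 lie at the start of the neighbour Diap1, so the MEL share of 0.556% is not of member sites alone. The preparations differed in how much passed: 5 member windows in MEL A (0.694%, against 0.183% of the genome), 19 in MEL B (2.64% against 0.414%), 11 in ES-EP A (1.53% against 0.315%) and 1 in ES-EP B (0.139% against 0.115%). These genome shares are not limited to gene windows, whose called shares in both preparations were higher, as given above. Part of the windows passing in MEL B lay at starts of the neighbours Marcksl1, Diap1, Rell2 and Man2c1. No window of Suv39h1 or Cbx5 passed in any preparation.

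At the promoters, 1 of the 8 members was called in MEL cells and 0 in ES-EP. Of all protein-coding promoters 13.7% were called in MEL cells and 8.36% in ES-EP, so the members' shares are near or below the background. In ES-EP the same Poisson test passed in preparation A alone for Hdac1 and Hdac3 and in preparation B for none. On the scale of log2 ChIP over input with 1 read added, the median of the members was 0.54 in MEL cells and 0.24 in ES-EP, against 0.32 and 0.23 for all promoters. Preparation B gave the higher value in MEL cells for 7 of the 8 members, Sin3a being the exception. The plot of promoter values shows both preparations of each cell type.

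**Figure D1:**
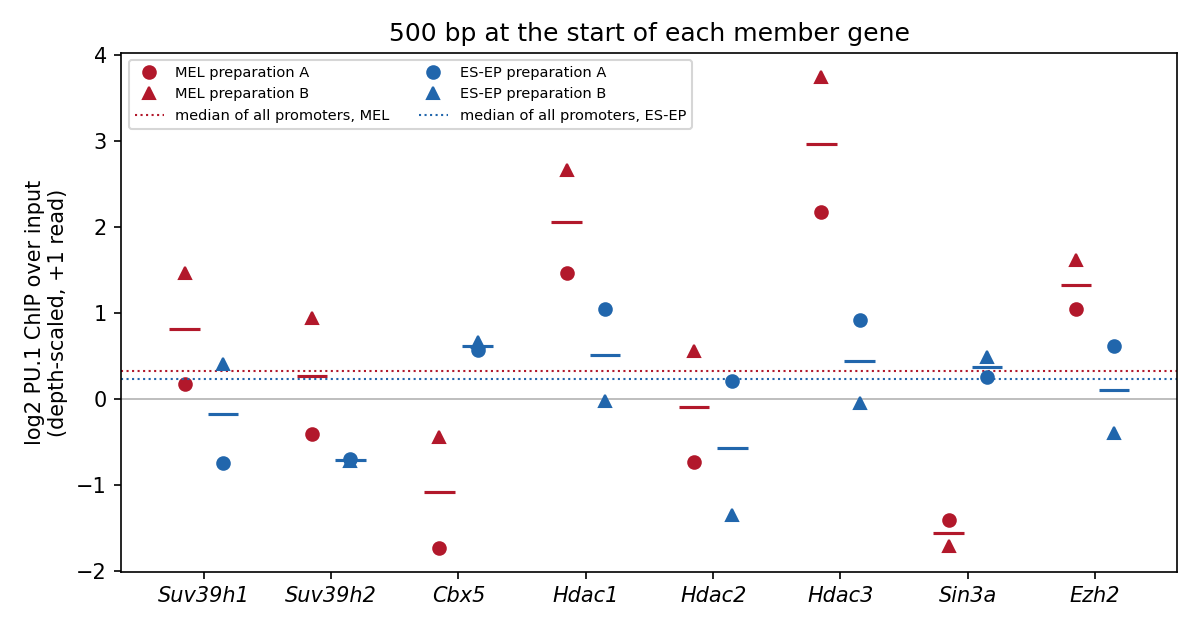
Log2 of depth-scaled PU.1 ChIP over input in the 500 bp at the start of each member gene, with circles for preparation A, triangles for preparation B, short bars for the mean of both and dotted lines for the median of all promoters. In MEL cells Hdac3 (mean 2.96, on an input of 0 reads) and Hdac1 (2.06) stand highest and Sin3a (-1.56) lowest, and in ES-EP the means lie between -0.71 and 0.62.

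Ezh2 held the one window that was called in both cell types. The window chr6:47511001-47511500 lies in intron 3 (chr6:47508294-47526534, 18241 bp long) of the main transcript, which has 20 exons, and its read summit at 47511059 is 33970 bp downstream of the start. In MEL cells libraries A1, A2, B1 and B2 had 8, 8, 5 and 10 reads there, against 3 in the input. In ES-EP the same libraries had 29, 32, 5 and 18 reads, against 0 and 1 in the inputs. Every ChIP library thus had more reads than any input library.

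Relative to depth-scaled input the Ezh2 window stood at 3.49 in MEL cells (95% interval 1.09 to 17.8) and at 47.0 in ES-EP (8.21 to 1879), an interval as wide as an input of 1 read allows. The adjusted p was 0.00381 for MEL A, 0.0446 for MEL B, 3.55e-65 for ES-EP A and 4.53e-13 for ES-EP B. A limma fit of preparations against input libraries called the window in ES-EP (log2 change 4.52 ± 0.90 SE, adjusted p = 5.20e-05). In MEL cells that fit did not call it (1.63 ± 0.99, adjusted p = 0.322). The fit called 6.62% of 65012 windows in MEL cells and 10.2% in ES-EP. Windows entered the fit by their ChIP reads alone, so a call in it is not separate support. Over all windows tested, the median log2 change over input was 1.09 in MEL cells and 0.80 in ES-EP. In reads per 1000000 reads of the preparation (RPM), ES-EP A and B stood at 9.71 and 3.24 and MEL A and B at 2.81 and 2.15, so that the cell types did not overlap. The difference did not pass in limma, with MEL minus ES-EP at -1.17 ± 0.64 (log2, SE) and an adjusted p of 0.790. Taken over input it was -2.89 ± 1.34 with an adjusted p of 0.553.

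At this Ezh2 window the strands lay apart in the ChIP reads pooled over both cell types. Within 200 bp of the summit, 76 ChIP reads on the plus strand had their median start at -93.0 bp. The 65 reads on the minus strand had theirs at 65 bp, both from the summit. The summit is the densest point of reads already moved by 70 bp or 65 bp, which by itself favours such a separation. AGGAAGT is centred at -27 bp. In the 100 bp around that word MEL A and MEL B had 7 and 12 fragment centres and those of ES-EP 47 and 17, while both inputs had 0. The other copies of AGGAAGT in the intron sequences given above, centred at -546 bp and 442 bp from the summit, had 0 fragment centres in the 100 bp around them in every ChIP preparation. The first of these copies also carries GAGGAA. The summit was set at the densest point of these same reads and the other stretches were given as lacking one. The counts therefore do not compare the longer match with the shorter one. The profile along Ezh2 and the profile by strand show the site.

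**Figure D2:**
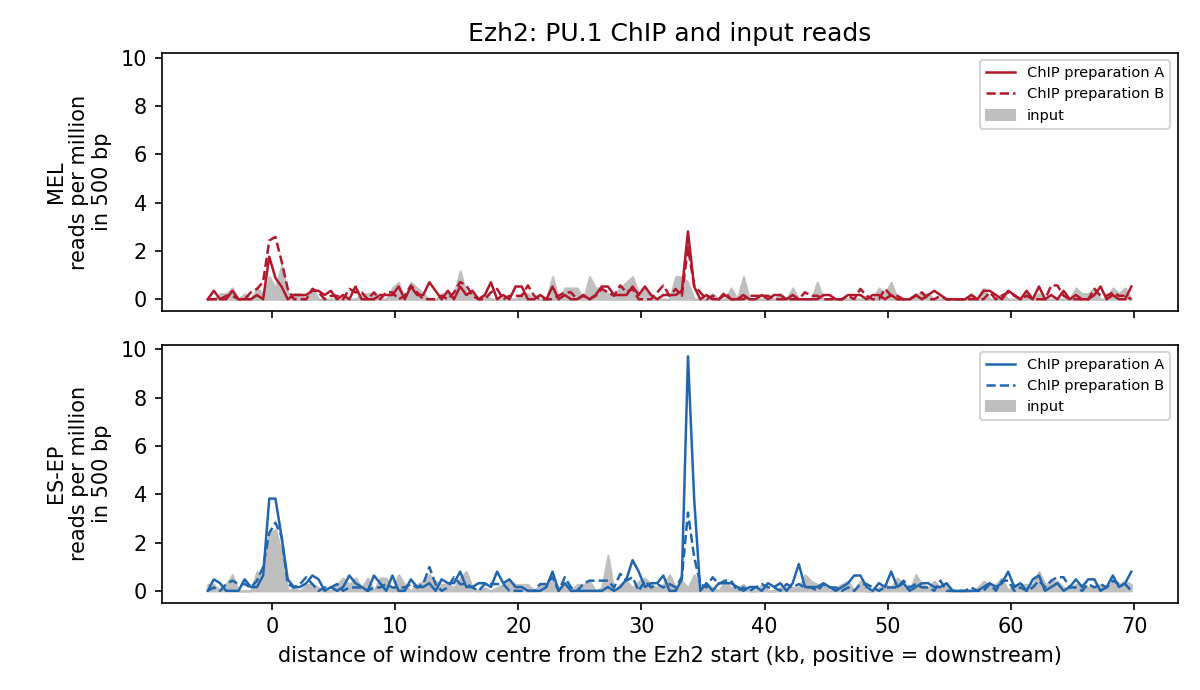
Depth-scaled reads (RPM) in 500 bp windows along Ezh2 against the distance from its start in kb, with MEL cells in the top panel and ES-EP in the bottom one, solid lines for ChIP preparation A, dashed lines for preparation B and grey for input. The peak 34 kb downstream rises over input in both cell types, to 9.71 in ES-EP preparation A, while the peak at the start of the gene in ES-EP is shared by the input.

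**Figure D3:**
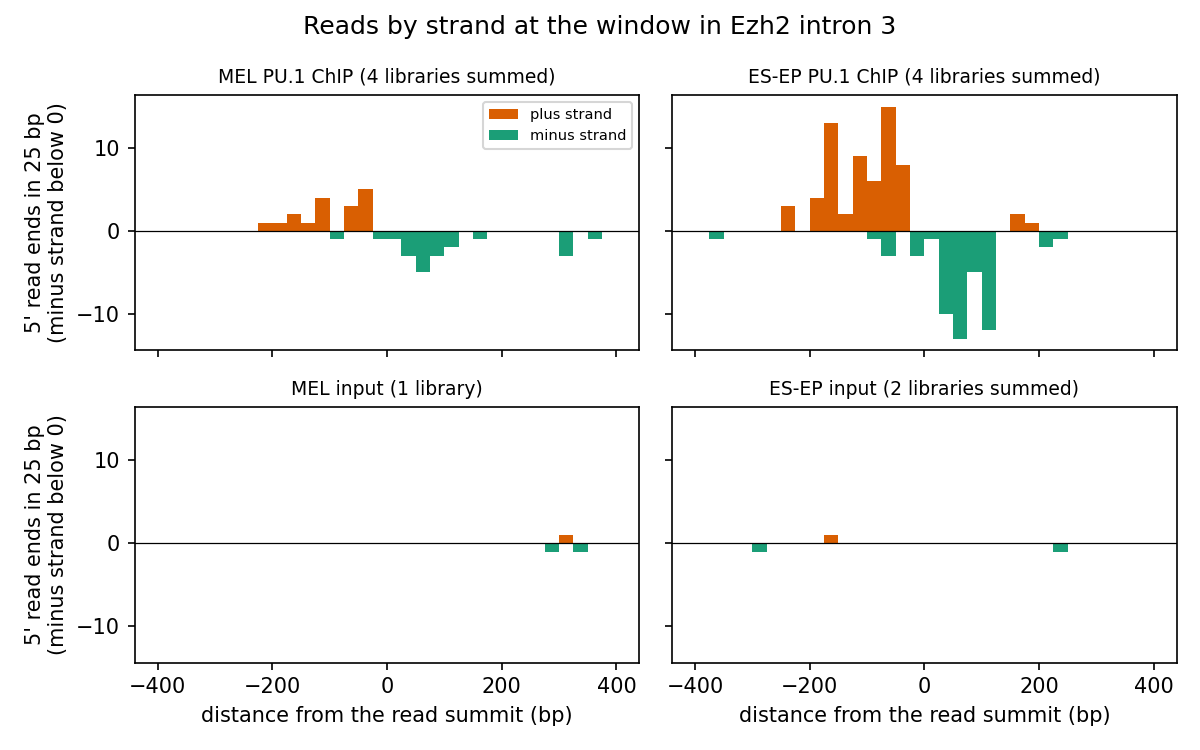
Number of 5′ read ends in bins of 25 bp against the distance from the read summit in Ezh2 intron 3, plus strand above 0 and minus strand below, summed over the libraries of each group on 1 common scale. Most ChIP reads of the plus strand lie before the summit and most of the minus strand after it in both cell types, and the inputs have single reads.

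The Ezh2 promoter was not called in either cell type. MEL libraries A1, A2, B1 and B2 had 2, 8, 5 and 14 reads against 3 in the input, and those of ES-EP had 9, 22, 6 and 11 against 4 and 20. The ratio was 3.26 in MEL cells (1.01 to 16.7) and 1.12 in ES-EP (0.672 to 1.91). MEL preparation A missed the threshold (adjusted p = 0.0538) and preparation B passed (5.59e-06). In the first window upstream of the summit window in sequence, chr6:47510501-47511000, ES-EP preparation A alone passed, with 24 reads against 10 in preparation B and 5 in the inputs.

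Hdac1 encodes a class I histone deacetylase carried by the Sin3 and NuRD complexes, and its promoter was the only member promoter called, in MEL cells. At the start on chr4:129219957 MEL libraries A1, A2, B1 and B2 had 6, 4, 8 and 22 reads against 2 in the input, a ratio of 6.75 (1.75 to 57.6). The adjusted p was 0.00477 in preparation A and 7.62e-18 in preparation B. The limma fit against input did not call it (2.27 ± 1.06, log2 and SE, adjusted p = 0.223). ES-EP libraries had 14, 35, 6 and 20 reads against 4 and 24, a ratio of 1.50 (0.960 to 2.40), and preparation A passed (2.57e-05) where preparation B did not (1.00). ES-EP thus had more ChIP reads than MEL cells but also more input reads.

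Within the Hdac1 window chr4:129219501-129220000 the read summit was in intron 1, 224 bp downstream of the start, over the sequence given above. AGGAAGT and GAGGAA overlap there on the minus strand, which is the strand of the gene. In the 100 bp around AGGAAGT MEL A and MEL B had 4 and 14 fragment centres against 0 in the input, and ES-EP preparations had 7 and 2 against 1. Plus-strand reads had their median start at -41.5 bp and minus-strand reads at 93.0 bp from the summit. The window itself was not called in the genome-wide table, since MEL preparation A reached an adjusted p of 0.0900. Its ratio was 12.5 in MEL cells (2.11 to 506) and 1.93 in ES-EP (0.968 to 4.19). The region also holds the promoter of Marcksl1, which encodes a MARCKS-like protein of the cell cortex, 29132 bp downstream of the Hdac1 start, where MEL B passed (3.36e-09) and MEL A did not (0.554). Of the 5 windows of the Hdac1 region that passed in MEL B, 3 lay at Marcksl1 and 2 at the Hdac1 start.

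Hdac2, the close relative of Hdac1 in the same complexes, was not called at its promoter. MEL libraries A1, A2, B1 and B2 had 2, 5, 8 and 15 reads against 9 in the input, and ES-EP libraries 10, 23, 4 and 8 against 10 and 24. The ratio was 1.12 in MEL cells (0.520 to 2.69) and 0.741 in ES-EP (0.464 to 1.19). A window in intron 8 of Hdac2, chr10:36716501-36717000, passed in MEL preparation A only. Of its 12 reads there, 11 came from library A2, of which 10 were on the plus strand within 11 bp, and the other ChIP libraries had 0 or 1 read each.

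Hdac3 had the highest mean promoter value of the members in MEL cells, on an input of 0 reads. MEL libraries A1, A2, B1 and B2 had 3, 2, 6 and 15 reads. With a floor of 3 input reads summed over the input the ratio was at least 1.25 in preparation A and at least 4.29 in preparation B. Here and below, such values only set the input to 3 reads. They have no interval and leave out the counting error of the ChIP reads. Only preparation B passed (adjusted p = 2.99e-11, against 0.330 in A). ES-EP libraries had 10, 8, 1 and 9 reads against 1 and 10, a ratio of 1.42 (0.688 to 3.17), with preparation A passing (0.0325). The 3 promoters nearest to Hdac3 in their log2 values over the 4 preparations (Euclidean distance) were those of Uck2 (0.148), Pcgf3 (0.224) and Sec13 (0.252). All 3 had the value of Hdac3 in MEL A (2.17), which for Hdac3 comes from 5 reads over an empty input with 1 read added, so that the distances rest on low numbers.

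The 2 windows called in the Hdac3 region belong to the start of its neighbour Diap1, a formin that nucleates actin filaments. They lie on chromosome 18 just past the end of Hdac3, with centres at -120 bp and 285 bp from a Diap1 start. Together they had 41 and 99 reads in MEL A and MEL B against 4 in the input, a ratio of 11.8 (4.51 to 43.9). In ES-EP they had 140 and 61 reads against 45, a ratio of 2.50 (1.80 to 3.54), and only preparation A passed in each window. The Diap1 promoter itself was called in MEL cells, and in ES-EP preparation B missed the threshold (adjusted p = 0.0583). Rell2, a RELT-like membrane protein gene that starts at -571 bp from the Hdac3 start on the other strand, was called in MEL cells with 9 and 13 reads against 2, and in ES-EP it had 13 and 16 reads against 16. Without the windows within 1 kb of a start or passing in any preparation, the Hdac3 region had between 0.840 and 1.24 times the input.

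Sin3a, the scaffold of the Sin3 complex, passed the test in MEL cells at an upstream annotated start and not at the start of the transcript with the longest coding sequence. At the latter, chr9:56934388, MEL A and MEL B had 1 read each against 3 in the input, and ES-EP preparations 2 and 3 against 2. The window chr9:56924501-56925000, whose centre is 315 bp downstream of another annotated start, had 5, 8, 7 and 17 reads in MEL libraries A1, A2, B1 and B2 and 0 in the input. Its ratio in MEL cells was at least 4.16 at the floor of 3 input reads, and the adjusted p was 1.64e-04 in preparation A and 2.17e-13 in preparation B. ES-EP libraries had 11, 21, 5 and 17 reads there against 2 and 25 in the inputs, a ratio of 1.12 (0.693 to 1.85). The ChIP RPM of the cell types overlapped (2.28 and 3.43 for MEL A and B, 5.09 and 3.10 for ES-EP A and B), and the difference of ChIP over input, 3.88 ± 1.38 on the log2 scale (SE), had an adjusted p of 0.407 in limma. The limma fit against input, which windows enter by their ChIP reads, called the window in MEL cells (adjusted p = 0.00856). The window held neither GAGGAA nor AGGAAGT and 72.4% of its bases were G or C. Around its summit, plus-strand reads had their median start at -54.0 bp and minus-strand reads at 36.5 bp.

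A second stretch of Sin3a, 4 adjoining windows at chr9:56920001-56922000 just downstream of the first annotated start, passed in MEL preparation B and ES-EP preparation A and in neither of the others. Summed, it had 30 and 66 reads in MEL A and MEL B against 9 in the input, a ratio of 3.60 (1.82 to 8.11), and 135 and 63 reads in those of ES-EP against 46, a ratio of 2.41 (1.74 to 3.40). Strands were examined in its window chr9:56920501-56921000 only. Around the densest point there they did not separate as at Ezh2, with medians 44.0 bp and 45.0 bp after the summit. Its last window, chr9:56921501-56922000, holds AGGAAGT and had less ES-EP input. ES-EP A and B had 29 and 11 reads there against 4, a ratio of 5.60 (2.02 to 21.5). MEL A and MEL B had 10 and 17 against 3, a ratio of 3.04 (0.934 to 15.6). At the far end of the region, the promoter of Man2c1, which encodes a cytosolic alpha-mannosidase, had 2 and 18 reads in MEL A and MEL B against 1, and preparation B alone passed (1.56e-10). The profile along Sin3a shows the 3 places.

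**Figure D4:**
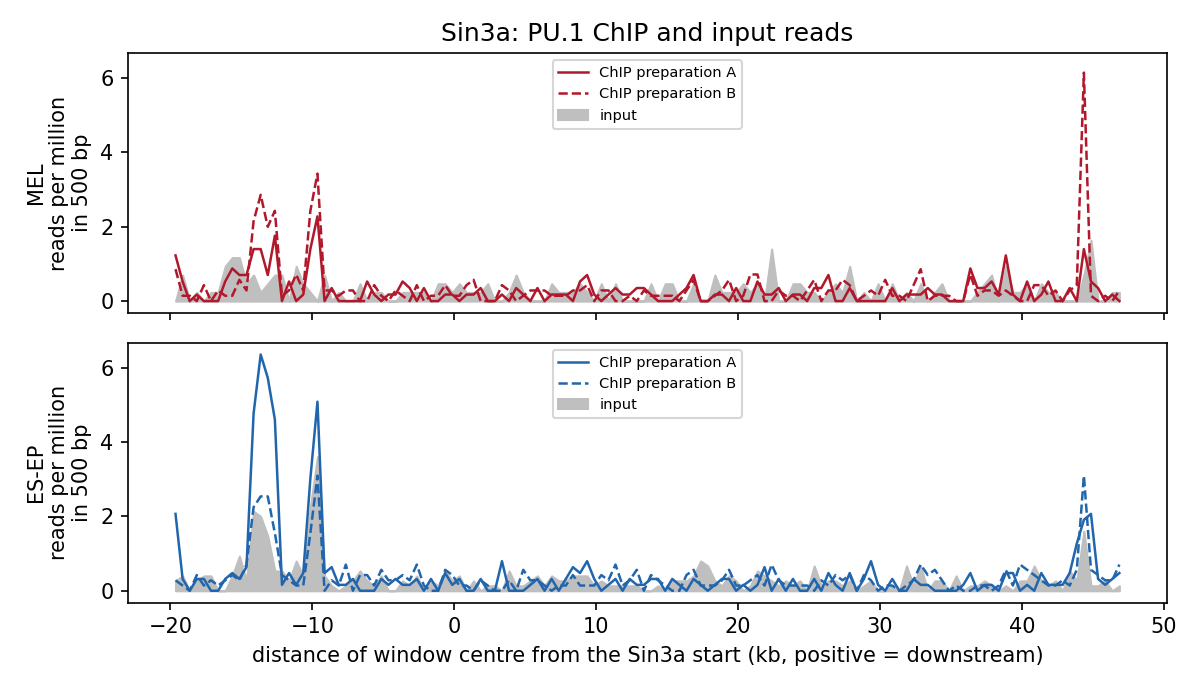
Depth-scaled reads (RPM) in 500 bp windows along Sin3a against the distance from the start of its main transcript in kb, drawn as for Ezh2. The ChIP lines rise about 14 kb and 10 kb upstream of that start and at the Man2c1 promoter 44 kb downstream. In ES-EP the input rises at the same places, but only to 0.534 at -12638 bp, where ChIP preparations A and B reach 4.61 and 1.55.

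Neither gene of the H3K9 methyltransferases SUV39H1 and SUV39H2 was called at its promoter. At the Suv39h2 promoter on chromosome 2 MEL libraries A1, A2, B1 and B2 had 2, 4, 7 and 14 reads against 6 in the input, and ES-EP libraries 3, 13, 7 and 11 against 7 and 25. The ratio was 1.52 in MEL cells (0.614 to 4.50) and 0.595 in ES-EP (0.356 to 0.995), the lowest of the members there, and only MEL preparation B passed (adjusted p = 0.00408). At the Suv39h1 promoter on chromosome X MEL libraries had 0, 2, 2 and 6 reads against 1, and ES-EP libraries 1, 2, 2 and 7 against 1 and 6, with MEL preparation B passing (0.00509). Over the whole Suv39h1 region the ratio was 1.10 in MEL cells (0.836 to 1.47) and 0.678 in ES-EP (0.484 to 0.955). The MEL input had 1.80 times the RPM of the ES-EP input in that region and 1.52 times over all of chromosome X.

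Cbx5 had few reads at its start and no window that passed. At the start on chr15:103070247 MEL libraries A1, A2, B1 and B2 had 0, 1, 3 and 2 reads against 4 in the input, and ES-EP libraries 2, 2, 4 and 1 against 1 and 2. Hnrnpa1, a splicing factor gene that starts at -698 bp from the Cbx5 start on the other strand, was as sparse, with 0 and 3 reads in MEL preparations and 1 and 2 in those of ES-EP. Over the whole Cbx5 region the ratio was 1.08 in MEL cells (0.784 to 1.50) and 0.892 in ES-EP (0.756 to 1.06). The region was thin in every MEL library, input included. MEL A and MEL B had 65 and 101 reads against 52 in the input, where ES-EP preparations had 181 and 192 against 234, so that the MEL input had 0.389 times the RPM of the ES-EP input while chromosome 15 as a whole had 1.29 times. Few MEL reads at Cbx5 therefore limit what could be called there, whatever the occupancy.

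In their rank by mean promoter value the members ran Hdac3, Hdac1, Ezh2, Suv39h1, Suv39h2, Hdac2, Cbx5, Sin3a in MEL cells, and Cbx5, Hdac1, Hdac3, Sin3a, Ezh2, Suv39h1, Hdac2, Suv39h2 in ES-EP. The ranges of the 2 preparations overlapped between every pair of neighbours in both orders. The first place of Hdac3 in MEL cells rests on an input of 0 reads with 1 read added, and at the floor of 3 input reads its ratio of at least 2.92 does not place it above Hdac1 (6.75) or Ezh2 (3.26). Away from starts and from windows that passed in any preparation, the 8 regions had between 0.635 and 1.26 times the depth-scaled input in the 4 preparations.

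No member differed between MEL cells and ES-EP by limma over the 4 preparations. Of 33 member windows with at least 20 reads 0 passed and 2 had an unadjusted p below 0.05, where over all 65012 windows tested 0.241% passed and 4202 had an unadjusted p below 0.05. These 2 were the Sin3a window chr9:56921001-56921500 (MEL minus ES-EP -1.61 ± 0.62, log2 and SE, adjusted p = 0.467) and the Hdac1 window chr4:129220001-129220500 (-1.26 ± 0.61, adjusted p = 0.743). Of the 7 member promoters with at least 10 reads 0 passed and 0 had an unadjusted p below 0.05, where 0.0142% of 14052 promoters passed. With input in the fit, where 0.0615% of windows and 0.00712% of promoters passed, 0 members passed, while 4 windows and 1 promoter (Hdac3, 3.20 ± 1.55, adjusted p = 0.850) had an unadjusted p below 0.05, as did 5281 of all windows and 818 of all promoters tested. The smallest of these was at chr9:56979001-56979500 (-4.54 ± 1.35, adjusted p = 0.251), past the end of Sin3a and 657 bp downstream of a Man2c1 start. That window had 3 and 1 reads in MEL A and B against 7 in the input, and 13 and 4 in ES-EP A and B against 1. Against input within a cell type, limma called 0 member promoters (1.75% of all in MEL cells, 3.36% in ES-EP), and of the member windows it called 3 in MEL cells, at Sin3a, at Diap1 and at the Hdac3 start, with 1 in ES-EP, at Ezh2, out of 33 tested, where 6.62% and 10.2% of all windows were called. Standard errors of the promoter differences were between 0.67 and 0.91, so that a 2-fold difference (1 on the log2 scale) lay within 2 SE of 0. The median difference over all promoters tested was -0.39.

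Other genes of the same complexes, 59 names with 60 gene models, were read in the same way. Of these 14 promoters (23.3%) were called in MEL cells and 6 (10.0%) in ES-EP, 3 of them in both, where the shares over all promoters were 13.7% and 8.36%. Of 13 other Sin3 complex genes 6 were called for MEL cells and 3 for ES-EP, and of 8 other Polycomb repressive complex 2 genes 4 and 0. Among 11 NuRD and CoREST genes 2 and 1 were called, among 5 NCoR and SMRT complex genes 1 and 0, and among 7 sirtuins 1 and 1. Of 9 gene models of other classical histone deacetylases, where Hdac4 has more than 1 model, 0 and 1 were called. Of 7 other H3K9 methyltransferase and HP1 genes 0 and 0 were called. The medians of log2 ChIP over input in MEL cells ran from -0.88 (other classical histone deacetylases) to 1.63 (other Sin3 complex genes), against 0.32 for all promoters.

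Ing2, a PHD finger protein of the Sin3 complex, was called in MEL cells with 22 and 25 reads against 0 in the input. So was Kdm1a, the H3K4 demethylase of CoREST, with 7 and 21 against 0. Their ratios were at least 5.28 and at least 3.15 at the floor of 3 input reads. Such bounds leave out the counting error of the ChIP reads and cannot be placed exactly in an order by ratio. With these bounds taken as values, the leading called companions in MEL cells were Sin3b, the second Sin3 scaffold, with 8 and 30 reads against 1 (ratio 12.8, 2.17 to 519), Mtf2, a Polycomb-like accessory protein, with 13 and 20 against 1 (11.1, 1.86 to 453), and Ing1, an H3K4 methyl reader of the Sin3 complex, with 18 and 38 against 2 (9.44, 2.50 to 79.9). In ES-EP they were Hdac10, a class IIb deacetylase, with 45 and 22 reads against 9 (4.17, 2.07 to 9.51), Sap30l, a Sin3-associated protein, with 77 and 52 against 19 (3.80, 2.34 to 6.52), and Ing1 with 58 and 37 against 17 (3.13, 1.85 to 5.59). Ing1 was among these 3 in both cell types. The plot of the lists shows each gene.

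**Figure D5:**
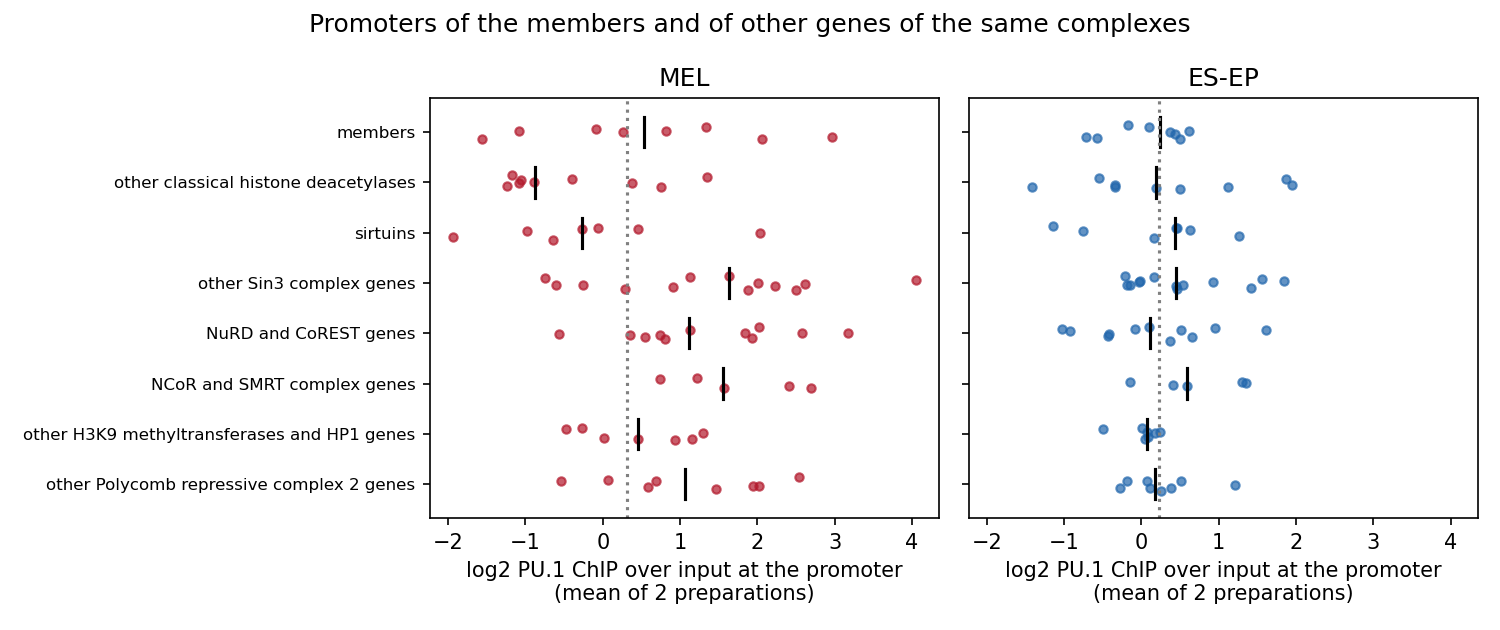
Mean of both preparations of log2 PU.1 ChIP over input at the promoter, on the horizontal axis, for the members and 7 lists of other genes with MEL cells in the left panel, ES-EP in the right one, 1 point per gene model, a bar at the median of a list and a dotted line at the median of all promoters. In MEL cells the medians of the Sin3 (1.63), NCoR and SMRT (1.56), NuRD and CoREST (1.12) lists lie to the right of the dotted line. So do those of Polycomb repressive complex 2 (1.07), the members (0.54) and the H3K9 methyltransferase and HP1 genes (0.45). Those of the other classical deacetylases (-0.88) and sirtuins (-0.27) lie to its left, while in ES-EP the medians lie between 0.07 and 0.59.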

How the data were processed

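The authors sequenced PU.1 ChIP and input DNA of MEL cells and ES-EP on an Illumina GAII and aligned reads with ELAND (version not given in the sources used here) to mm9, per the labels and methods, keeping unique alignments with up to 2 mismatches. In the deposited files each line is 1 alignment, with no measured value, so every read number was counted from them. Reads of the 11 libraries were moved by 70 bp (MEL) or 65 bp (ES-EP) to the fragment centre and summed by preparation, the library letter being taken as the preparation. Genes came from GENCODE on NCBIM37, the assembly of mm9. A promoter is the 500 bp centred on the start of the transcript with the longest coding sequence. The Poisson mean was the largest of the input mean over the genome, over 10 kb, over 5 kb and in the window itself, scaled to total reads, and ratios used total reads, with a floor of 3 reads where the input had 0. MEL cells and ES-EP were compared with limma 3.58.1 (voom, R 4.3.3, moderated two-sided test), with Benjamini-Hochberg adjustment over each whole table. At least 20 ChIP reads per window or 10 per promoter were required, also where input was in the fit. The scripts were checked on simulated promoters.

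The genes named are the 8 members, genes with a protein-coding start in a member region, the 3 called companions with the largest ratio in each cell type, and the 3 promoters nearest to the highest member. Beside these, Ing2 and Kdm1a are named, whose ratios rest on the floor of 3 input reads, and Sfpi1 as a check of the immunoprecipitation. The members and lists were chosen with earlier results of these data known. The paper calls the preparations duplicate and independent. With 2 per cell type, a limma p rests on a variance moderated over the whole table, and only in part on the spread of these preparations.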

Additional observations from a re-analysis of the deposited data

Results flagged for a closer look

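In 50 sets of 4 ChIP libraries of a cell type, 1 held a library far from the others. For the depth-scaled reads (RPM) in the Ezh2 region, MEL library A1 was lowest at 25.8, against 31.6, 30.7 and 31.5 in A2, B1 and B2, and its gap to the next took 0.852 of the whole range. Chance alone marks about 1 in 20 such sets.

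Among the 8 regions and 8 promoters, in 3 cases both preparations of one cell type lay above the input and both of the other below it. The ratio of ChIP to input in MEL cells divided by that in ES-EP was 1.62 over the Suv39h1 region, 0.161 at the main Sin3a start and 0.301 at the Cbx5 start. The difference was not tested at the first 2. At Cbx5 it did not pass in limma with input in the fit (-1.63 ± 1.35, log2 and SE, adjusted p = 0.889). At both starts no preparation or input had more than 5 reads, and at Suv39h1 the inputs differ as given above.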

How the results depend on the processing

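Counts of called members depended on how the preparations were used. In MEL cells the 4 windows became 7 with only the window's own input and the genome mean, and 19 with the preparations summed. They fell to 3 with 1 read per position and strand, where 0.127% of all windows were called, and the window lost is not given here. In limma they were 3, without the Ezh2 window, as given above. Leaving out a preparation gave 5 to 19, the higher value without preparation A. The MEL share over all windows of the genome moved too, from 0.133% to 0.184% with only the window's own input and the genome mean. It was 0.535% with the preparations summed, 0.414% without preparation A and 0.183% without preparation B. The 1 called ES-EP window became 10 with the preparations summed, and leaving out a preparation or input library gave 1 to 11 (11 without preparation B, 6 without input library 2). The ES-EP share over all windows moved from 0.0952% to 0.365% when summed, 0.315% without preparation B and 0.130% without input library 2. The 1 called MEL promoter became 2 with median-ratio scaling, with 1 read per position and strand, with unshifted reads and with every annotated start (added after seeing the data, Hdac1 and Sin3a), 3 with only the window's own input, 4 with the preparations summed and 0 in limma, and leaving out a preparation gave 1 to 5, the higher value without preparation A. The 0 ES-EP promoters became 1 with the preparations summed and 0 to 2 when leaving out a preparation or input library (2 without preparation B and 2 without input library 2). With both preparations of each cell type kept, no alternative called a member window or promoter different between the cell types. This includes the replicate block on the preparation letter (0 windows and 0 promoters). Genome-wide calls under these alternatives ran from 10 windows, under that block, to 1743, and from 0 to 313 promoters. Fits without a preparation have 1 preparation in a cell type and could call almost no feature, so they tell nothing about the members. Median-ratio scaling called 809 windows higher and 560 lower in MEL cells (104 and 53 otherwise) and 202 and 111 promoters (1 and 1 otherwise), with 0 members, and moved the median promoter difference from -0.39 to 0.03. The 14 companion promoters called in MEL cells became 37 with the preparations summed and 40 without preparation A, and the 6 in ES-EP became 14 when summed, 16 without preparation B, 11 without input library 2 and 11 with promoters of 1 kb. The shares over all promoters moved too: in MEL cells from 13.7% to 37.1% with the preparations summed, 38.6% without preparation A and 13.3% to 17.0% under the other alternatives of the Poisson test, and in ES-EP from 8.36% to 22.1% when summed, 22.6% without preparation B, 15.1% without input library 2 and 9.43% with promoters of 1 kb. The letter does not pair the samples: deviations of the A preparations correlated at -0.230 over promoters, and it was not used as a pair. The ratio at the Ezh2 intron window ran from 3.04 to 3.73 in MEL cells and from 35.3 to 57.9 in ES-EP over single reads per position, unshifted reads and each ChIP library left out, and the ES-EP value rests on 1 read of input library 2. Few input reads per window limit the precision of every ratio.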

Other observations

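The few MEL reads at Cbx5 were part of a longer stretch. From chr15:103000001 to the chromosome end at 103494974, the MEL input had 0.529 times the depth-scaled reads of the ES-EP input (exact interval 0.482 to 0.581), and MEL ChIP had 0.484 times those of ES-EP. In the 1 Mb before it, the same ratios were 1.35 (1.29 to 1.41) and 1.29. In pieces of 100 kb the input ratio was between 1.15 and 1.51 in the 10 pieces before and between 0.512 and 0.564 in the 4 whole pieces after that point. The stretch was looked at after the Cbx5 reads were seen, its edge was set at the last whole megabase before the gene, and the cause was not tested.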
